A study of Mus musculus with 4 samples.

Results

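Transcripts of 44 genes of DNA replication and mitosis were described in single cells from the mouse heart. The genes were a fixed list read by symbol from the gene table of each library, and all 44 were among its 31053 genes. They were divided into 19 replication genes (Mcm2 to Mcm7, Pcna, Gins2, Rrm1, Rrm2, Cdc6, Cdc45, Ung, Fen1, Slbp, Hells, Clspn, Pclaf and Tyms) and 25 mitotic genes (Mki67, Top2a, Birc5, Ube2c, Cenpf, Cenpe, Prc1, Ccnb1, Ccnb2, Ccna2, Cdk1, Cdc20, Aurka, Aurkb, Tpx2, Plk1, Bub1, Nusap1, Kif11, Kif23, Hmmr, Cdca3, Cdca8, Stmn1 and Hist1h1b). The rule that picks them uses gene symbols and no measured value, although the list was drawn up with earlier results of these data known. The cells carried an EGFP reporter driven by the Csf1r promoter, which is active in monocytes and macrophages and also marks other myeloid cells, and were sorted as CSF1R-EGFP+ and Ly6G-. The baseline group was 1 library that pooled 3 hearts of mice without surgery. For the infarct group, 3 hearts gave a library each 7 days after permanent ligation of the left coronary artery. All mice were reporter animals 12 to 16 weeks of age.

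After the filter of 500 to 40000 UMIs and over 200 genes per cell, 10117 to 10782 cells were kept per library. The median UMI count per cell was 6398.5 in the baseline library and 8469.5 to 8556.5 in the infarct libraries, so shares of cells were computed after thinning every cell to 2000 UMIs. Pairs of libraries shared 26 to 34 cell barcodes. Cells were assigned to types by gates on marker genes, none of them a member, and 9.26% to 14.9% of the cells per library stayed outside every gate. A UMI is counted once per molecule from the 3' end of a transcript, so levels are given as UMIs per 1000000 non-mitochondrial UMIs (CPM) and are not divided by length. In such sums, more cells that carry a transcript and more transcript per cell cannot be told apart.

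In the cell cycle, replication genes are switched on late in G1 and in S phase, when the MCM ring is loaded on origins, the clamp PCNA holds the polymerase on its template and ribonucleotide reductase (Rrm1, Rrm2) supplies deoxynucleotides. Mitotic genes follow in G2 and M, when cyclin B with Cdk1 drives entry into mitosis, kinesins and Prc1 build the spindle, and Ube2c and Cdc20 work with the anaphase-promoting complex to degrade cyclins. In the healthy heart, resident macrophages are known to renew themselves by division, and after infarction monocytes enter from the blood and differentiate into macrophages. Known regulators separate both lists at the promoter: E2F factors act on replication genes, and the DREAM and MuvB complexes act on mitotic genes through the cell cycle homology region (CHR), often next to CCAAT boxes bound by NF-Y.

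Promoter windows from RefSeq on GRCm38.p6 were found for 37 of the 44 members, each covering 250 bases before and 50 after the annotated start, with 1 window kept per gene. They were searched on both strands for the E2F letters TTTGGCGC, TTTCCCGC, TTTCGCGC and TTTGCCGC, for the CHR letters TTTGAA and TTCGAA, and for CCAAT. Matches of different motifs were counted even where they overlapped. Both lists differed in these letters. E2F letters stood in 47.1% of 17 replication promoters, in 5% of 20 mitotic promoters and in 2.32% of the promoters of all 27025 genes with a window. CHR letters stood in 80% of the mitotic promoters, in 17.6% of the replication promoters and in 19.4% of all. CCAAT was common in both, at 90% and 70.6% against 37.9% of all promoters. Every one of the 16 mitotic promoters with CHR letters also held CCAAT, while 7.66% of all promoters held both. These are matches of letters, not measured binding. The windows of 5 members are shown because the results turn on them: Mcm6, a subunit of the MCM helicase, Pclaf, a PCNA-binding factor of the replication list, and Cenpf, Prc1 and Ube2c, the mitotic genes with the lowest p in the macrophage type where all mitotic genes were higher. Each is given 5′ to 3′ on the strand of its gene up to 30 bases past the start, with all matches in capitals.
Mcm6, chr1:128359676-128359955, minus strand: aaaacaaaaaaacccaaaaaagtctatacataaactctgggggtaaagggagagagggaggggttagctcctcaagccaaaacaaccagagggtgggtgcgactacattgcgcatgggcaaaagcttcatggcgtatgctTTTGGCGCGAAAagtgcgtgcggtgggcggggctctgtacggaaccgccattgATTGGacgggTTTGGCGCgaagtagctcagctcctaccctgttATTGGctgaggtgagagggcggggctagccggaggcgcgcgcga
Pclaf, chr9:65890073-65890352, plus strand: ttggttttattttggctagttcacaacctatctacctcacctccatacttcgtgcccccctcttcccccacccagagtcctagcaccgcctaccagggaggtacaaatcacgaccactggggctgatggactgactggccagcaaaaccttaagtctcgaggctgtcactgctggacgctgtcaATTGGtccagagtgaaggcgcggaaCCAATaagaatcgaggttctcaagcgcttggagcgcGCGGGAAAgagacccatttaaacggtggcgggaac
Cenpf, chr1:189688057-189688336, minus strand: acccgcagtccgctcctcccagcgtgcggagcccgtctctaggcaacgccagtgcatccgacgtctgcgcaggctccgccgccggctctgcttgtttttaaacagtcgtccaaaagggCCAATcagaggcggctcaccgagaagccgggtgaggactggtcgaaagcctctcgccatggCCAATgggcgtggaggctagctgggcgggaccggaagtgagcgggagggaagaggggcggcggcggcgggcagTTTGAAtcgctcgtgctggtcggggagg
Prc1, chr7:80294201-80294480, plus strand: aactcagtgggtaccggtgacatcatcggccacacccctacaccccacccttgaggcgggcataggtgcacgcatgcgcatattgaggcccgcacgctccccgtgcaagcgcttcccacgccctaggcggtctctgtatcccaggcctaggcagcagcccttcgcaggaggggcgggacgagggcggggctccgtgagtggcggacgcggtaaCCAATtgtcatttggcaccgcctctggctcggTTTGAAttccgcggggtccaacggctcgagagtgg
Ube2c, chr2:164769679-164769958, plus strand: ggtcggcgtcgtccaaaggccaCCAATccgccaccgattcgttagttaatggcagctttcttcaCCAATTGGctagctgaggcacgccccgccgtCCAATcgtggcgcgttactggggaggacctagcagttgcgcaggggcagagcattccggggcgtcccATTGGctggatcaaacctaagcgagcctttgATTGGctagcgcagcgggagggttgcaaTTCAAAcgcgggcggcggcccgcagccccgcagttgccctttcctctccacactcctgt
The Mcm6 window held 3 E2F matches, of which a pair overlapped as TTTGGCGCGAAA, and no CHR match. Pclaf had 1 E2F match in the minus direction, 2 CCAAT matches and no CHR letters. Cenpf, Prc1 and Ube2c each had 1 CHR match, close to the start, and 2, 1 and 6 CCAAT matches further upstream, with no E2F letters.

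Infarct and baseline were compared first over all cells, which asks whether the infarct on day 7 held more transcripts of dividing cells than the uninjured heart. By CPM it did not hold more replication transcripts, although with TMM scaling the log2 ratio of their sum was 0.066, as given below. Some mitotic genes were higher and some lower in every infarct library. The replication genes together came to 398 CPM at baseline (exact Poisson 95% interval 394 to 403) and to 326, 341 and 360 CPM in infarct libraries 1 to 3, all below baseline. The mitotic genes together came to 573 CPM at baseline (567 to 578) and to 426, 514 and 601 CPM, on both sides of it. That sum includes Hist1h1b (112 CPM at baseline against 58 to 68 CPM) and Kif23 (33.5 against 9.21 to 13.5 CPM). By contrast, 8 of 23 mitotic genes with at least 5 CPM (34.8%) were above baseline in every infarct library, near the 27.8% of all 9674 genes at that level. Below baseline in every infarct library were 7 (30.4%), beside 58.9% of all genes. The sum without Hist1h1b and Kif23 was not taken. With 1 baseline library there was no test, and the intervals cover counting error only.

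Among the replication genes, Slbp, which binds the stem-loop of histone mRNA, had the highest level, with 75.1 CPM at baseline and 55.5, 57.1 and 57.6 CPM in the infarct libraries. Pcna followed with 53.2 CPM at baseline and 43.4, 42.2 and 39.5 CPM. The MCM subunits Mcm3 (40 against 35.1, 33.3 and 37.5 CPM) and Mcm6 (32.6 against 26.6, 29.3 and 28.7 CPM) were lower in every infarct library as well. Mcm4 had the lowest ratio of the list, at 27.3 CPM against 18.3, 18.1 and 21.6 CPM, a log2 ratio of the infarct mean over baseline of -0.50. After Slbp (-0.40), Hells, a chromatin remodeller, was next at -0.37, with 11.5 CPM against 8.07, 8.21 and 10.4 CPM. A total of 12 of the 16 replication genes with at least 5 CPM in a group lay below baseline in all 3 infarct libraries, and so did 58.9% of the 9674 genes at that level.
Pclaf and Rrm2 went the other way. Pclaf was at 17.3 CPM at baseline and at 21.5, 26.5 and 31.8 CPM, a log2 ratio of 0.62, and Rrm2 was at 4.97 CPM against 5.37, 7.02 and 7.91 CPM, a log2 ratio of 0.45. For Gins2, a part of the helicase, 11.5 CPM at baseline lay within the infarct range of 10.8, 12.9 and 13.2 CPM.

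Among the mitotic genes, Stmn1, a microtubule-destabilising protein, had the highest level in the infarct libraries and was second to Hist1h1b at baseline, with 84 CPM in the baseline library and 77.9, 101 and 116 CPM in the infarct libraries, which lay on both sides of baseline. Hist1h1b, a linker histone made in S phase, was at 112 CPM against 58, 58.7 and 68 CPM. Mki67, which coats mitotic chromosomes, was at 75.4 CPM against 37.9, 40.3 and 58.1 CPM, and Top2a, which untangles sister DNA, was at 54.1 CPM against 37.7, 41.6 and 51.5 CPM. All 3 of these genes were lower in every infarct library. Kif23, a kinesin of the cytokinetic midbody, had the lowest ratio of all members, with 33.5 CPM at baseline and 9.21, 10.9 and 13.5 CPM after infarction, a log2 ratio of -1.58.
A second group was higher in every infarct library. Birc5, the survivin subunit of the chromosomal passenger complex, was at 15.5 CPM at baseline and at 21.6, 30 and 32.8 CPM in the infarct libraries (log2 ratio 0.86). Cdca3, a trigger of entry into mitosis, had the largest ratio (0.96), with 6.94 CPM against 10.3, 14.6 and 15.6 CPM. Ccnb1, the cyclin B1 gene, was at 3.12 CPM against 5.28, 6.05 and 6.43 CPM (log2 ratio 0.92). In all, 8 of 23 mitotic genes with at least 5 CPM (34.8%) were above baseline in every infarct library and 7 (30.4%) below. Of the 9674 genes at that level, 27.8% were above and 58.9% below, so the share above was near that of all genes.

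Kif23 was the 1 member called, where a call asked for a fold of 2 and all infarct libraries on the same side. Of all 9674 genes, 2.72% were called higher and 8.29% lower by that rule. With TMM scaling Birc5, Cdca3 and Ccnb1 were called higher as well, which made 4, and without infarct library 1 there were also 4. The median log2 ratio was -0.25 for the replication genes and 0.17 for the mitotic genes, beside -0.23 for all genes. TMM scaling moved the median of all genes to 0.06 and raised the members with it, to 0.04 and 0.46, so that summed replication (-0.22, with TMM 0.066) and summed mitotic levels (-0.16, with TMM 0.13) changed sign. Relative to all genes, replication genes therefore stood near the middle and mitotic genes above it under both scalings. Kif23 (-1.29 with TMM), Hist1h1b (-0.58), Mki67 (-0.45) and Mcm4 (-0.21) stayed lower, and Birc5, Cdca3, Ccnb1, Pclaf and Rrm2 stayed higher. Slbp (-0.12), Hells (-0.08), Pcna (-0.07) and Top2a (-0.02) moved close to baseline with TMM, and Mcm3 (0.10) and Mcm6 (0.08) changed sign.

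**Figure D1:**
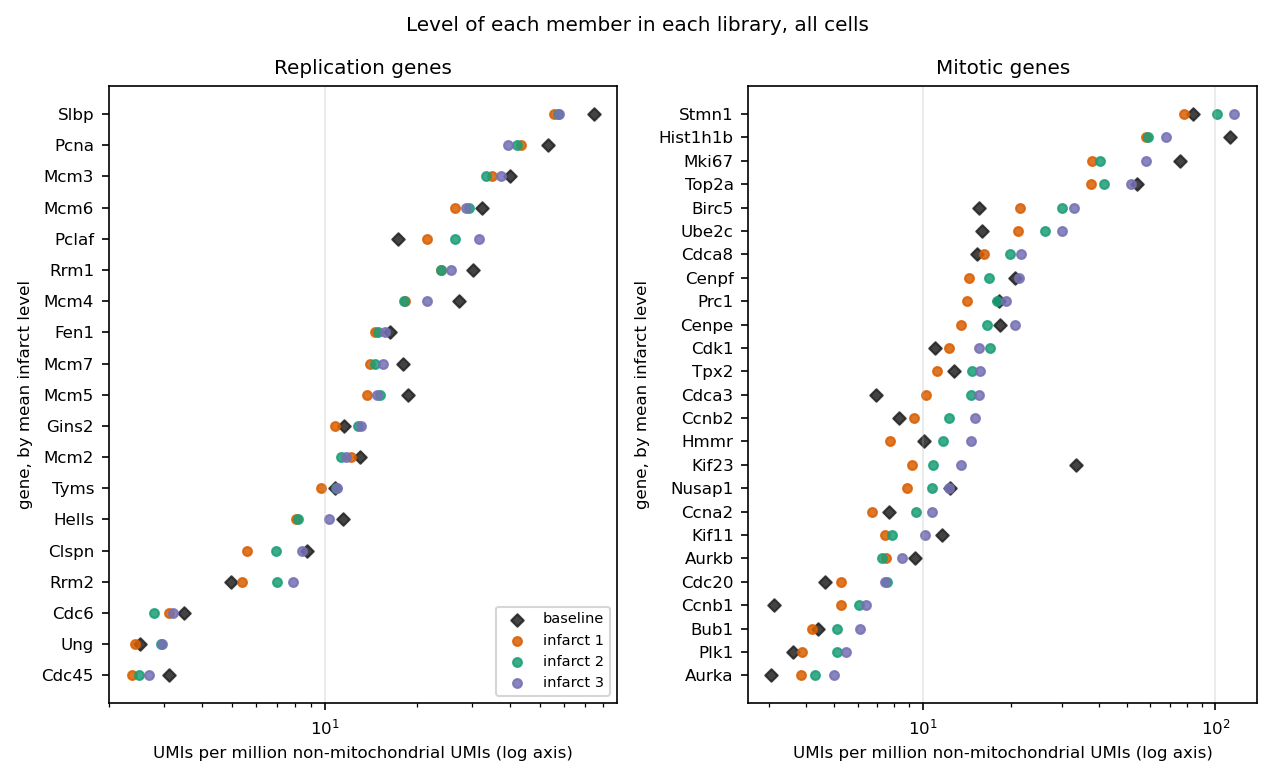
Each row is a member and each point its level in 1 library, in CPM on a log axis, with the baseline library as a diamond and the 3 infarct libraries as circles. Baseline lies to the right of all infarct libraries for Slbp, Pcna, Hist1h1b, Mki67 and, most of all, Kif23 (33.5 against 9.21 to 13.5 CPM), and to the left for Birc5, Cdca3, Ccnb1 and Pclaf.

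Which other members stood in the same cells as a transcript was then counted. These counts are no direct measure of S phase or mitosis, and the mitotic list includes Hist1h1b, a histone made in S phase. For each member, the cells with at least 1 of its UMIs after thinning were asked for at least 2 UMIs of the other replication genes and at least 2 UMIs of the other mitotic genes. Of the mitotic list, Hmmr, Ccna2, Plk1 and Ccnb1 were nearly confined to cells with other mitotic transcripts, at 94.3% ± 3.6, 93.5% ± 2.4, 92.2% ± 6.0 and 90.8% ± 0.9 of their cells (mean ± SD, n = 3 infarct libraries). Of the replication list, Slbp and Pcna stood at the other end. Mitotic transcripts were in 10.2% ± 2.6 of cells with Slbp and 12.4% ± 2.5 of cells with Pcna, beside 5.68% ± 1.2 of all infarct cells. No UMI of any other member was found in 57% ± 3.4 of cells with Slbp and 53.5% ± 1.7 of cells with Pcna.
The division of the list was not sharp. Rrm2, Pclaf and Clspn, the adaptor of the replication checkpoint, were listed as replication genes, yet 83.2% ± 3.1, 84.7% ± 0.6 and 65.3% ± 5.0 of their cells held mitotic transcripts, more than for Stmn1 (34.9% ± 3.3), Hist1h1b (46.4% ± 6.0) and Kif23 (48.2% ± 4.9) of the mitotic list. The MCM genes kept apart from these, with 15.9% ± 2.5 for Mcm3 to 30.8% ± 2.4 for Mcm5. Pcna and Slbp also stand below the MCM genes in the share of cells with other replication transcripts (17.7% ± 2.1 and 14.3% ± 2.9, against 27.2% ± 0.6 for Mcm3 and 47.6% ± 1.3 for Mcm5). Of all infarct cells, 9.96% ± 0.50 had at least 2 UMIs of any replication genes. Each member was left out of its own list, so the percentages compared do not rest on the same genes. Members of high level, such as Stmn1, Hist1h1b, Slbp and Pcna, were scored on a smaller sum of their own list. The part of that in these orders was not tested.
For Kif23 and Hist1h1b the cells differed between groups. At baseline 21% of 458 cells with Kif23 and 22.2% of 576 cells with Hist1h1b had other mitotic transcripts, below all infarct libraries, and 40% and 39.4% of them had no other member. For Mki67, the share with other mitotic transcripts was 54.8% at baseline and 57.1% ± 3.7 after infarction, and for Birc5 it was 87.2% and 82.6% ± 2.2. Genes listed here share cells and libraries, so these percentages are descriptions and were not tested.

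**Figure D2:**
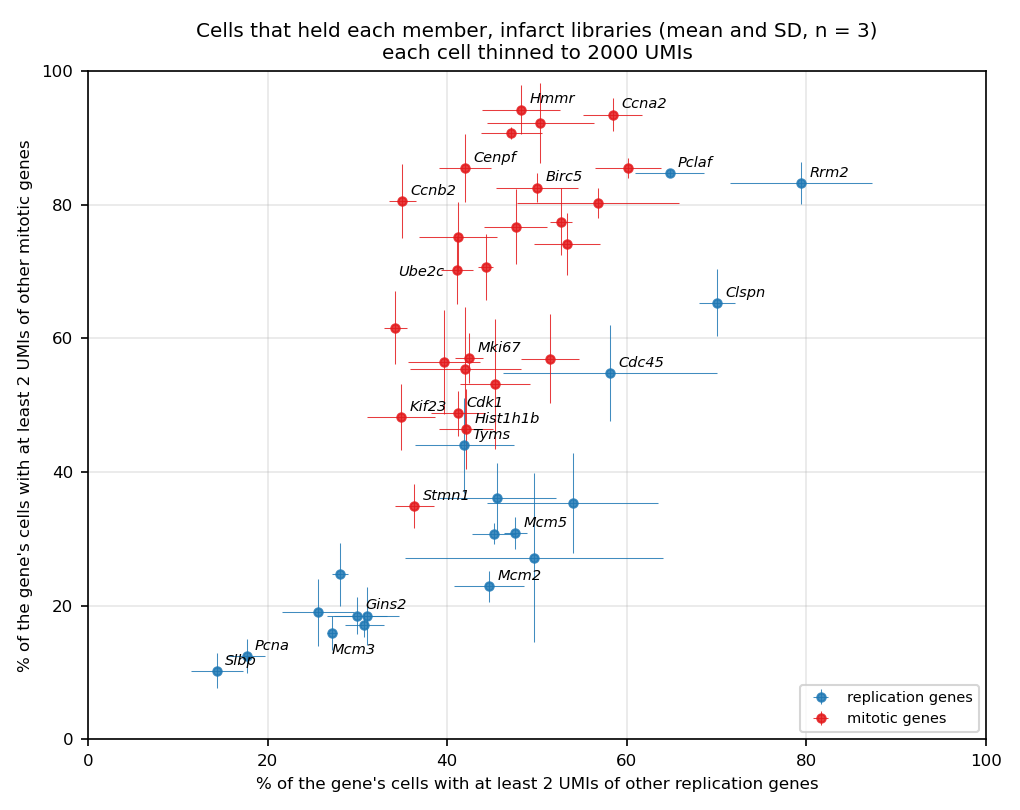
Each point is a member, placed by the percent of its cells with at least 2 UMIs of other replication genes (x axis) and of other mitotic genes (y axis), as the mean and SD of 3 infarct libraries after thinning to 2000 UMIs. Slbp and Pcna lie at the lower left (10.2% and 12.4% on the y axis), most mitotic genes at the top, and the replication genes Rrm2, Pclaf and Clspn lie among the mitotic genes at 83.2%, 84.7% and 65.3%.

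Counted as cells, 12.8% of baseline cells (exact binomial 95% interval 12.1% to 13.5%) had at least 2 replication UMIs at 2000 UMIs, against 9.74%, 9.6% and 10.5% of infarct cells. At least 2 mitotic UMIs were found in 6.03% of baseline cells (5.55% to 6.54%) and in 4.56%, 5.54% and 6.94% of infarct cells. UMIs of both lists were found in 2.45% of baseline cells (2.14% to 2.79%) and in 2.22%, 2.54% and 3.13% of infarct cells, a range that holds baseline. Without thinning, replication UMIs were in 44.5% of baseline and 46.6% ± 0.44 of infarct cells, and mitotic UMIs in 22.2% and 20.8% ± 2.5.
Granulocytes do not divide once mature and served as the type that should lack these transcripts, although the sort against Ly6G left few of them. At baseline 2.78% of 36 granulocyte-like cells had 2 mitotic UMIs, and 2.56% and 3.9% did in infarct libraries 2 and 3. In infarct library 1 the share was 16.3%, or 8 of 49 cells, so this type was no clean background there. Non-classical monocyte-like cells, which patrol vessels after leaving the cycle, gave a further level from few cells, with mitotic UMIs in 3.39% of 738 cells at baseline and in 1 of 46, 1 of 57 and 1 of 63 cells in the infarct libraries. Replication UMIs were in 10.8% of them at baseline and in 2, 3 and 6 of those infarct cells. Median depth was 4272 UMIs in non-classical monocyte-like cells at baseline and 3935 after infarction, 2085 and 2713.5 in granulocyte-like cells, and 6688 and 8662 in gated macrophages. The share of gated macrophages with mitotic UMIs, 6.18% at baseline and 5.66% ± 1.1 after infarction, was above the non-classical level in every library. So was the share with replication UMIs (14.1% and 10% ± 0.22). The non-classical replication shares were 10.8% at baseline and 4.35%, 5.26% and 9.52% in infarct libraries 1 to 3. In granulocyte-like cells of the infarct libraries 24.5%, 12.8% and 13% had 2 replication UMIs, more than in gated macrophages of the same libraries (9.93%, 9.92% and 10.3%). These shares rest on 12, 5 and 10 granulocyte-like cells. At baseline the order was the opposite, with 1 of 36 granulocyte-like cells (2.78%) against 14.1% of gated macrophages.

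By type, the mitotic transcripts were spread unevenly, and the macrophages without markers of a named state held the highest level of the macrophage types in the baseline library. Types were set by shares of marker UMIs: resident-like (Lyve1, Cd163, Folr2, Timd4, Cbr2, Vsig4), reparative-like (Gpnmb, Spp1, Gdf15, Fabp5, Trem2, Syngr1), interferon-response-like (Cxcl10, Ifit1 and others), Saa3 Arg1 (Saa3, Arg1, Marco, Slpi, Fn1), and 2 groups with none of these, of which 1 was high in MHC class II genes and the rest are called other macrophages. In other macrophages the mitotic genes summed to 2593 CPM at baseline (2531 to 2656, 438 cells) and to 952, 829 and 961 CPM in the infarct libraries, where they were 1297 to 2110 cells. Their replication genes summed to 743 CPM at baseline and to 445, 412 and 411 CPM. Both sums were lower in every infarct library, with log2 ratios of -1.50 and -0.81. This type is what the other gates left over, 4.28% of baseline cells and 12.5%, 19.6% and 18.8% of infarct cells. At baseline it was led by Mki67, Top2a and Hist1h1b. After infarction it was led by Col14a1, Fcrls and Slco2b1, with Cenpf at rank 5. A change in level and a change in which cells the gate holds cannot be told apart here. Mki67 alone was at 404 CPM in other macrophages of the baseline library and at 85.1, 70.6 and 92.1 CPM after infarction.
Reparative-like macrophages went the opposite way in the mitotic sum. Their mitotic sum was 109 CPM at baseline (91.5 to 128, in 83 cells) and 398, 380 and 311 CPM in 2213 to 3297 infarct cells, a log2 ratio of 1.74, while their replication sum lay on both sides of baseline (262 CPM against 291, 295 and 238 CPM). This interval, like that of other macrophages, takes UMIs as independent and leaves out the spread between cells. After thinning, 2 of the 83 baseline cells had at least 2 mitotic UMIs. Mki67 was at 6.83 CPM there at baseline and at 33.2, 28.7 and 29 CPM after infarction. Interferon-response-like macrophages had a mitotic sum of 177 CPM in 56 baseline cells and of 206, 389 and 367 CPM after infarction, with a replication sum that was lower in every infarct library (486 against 330, 285 and 296 CPM). Resident-like macrophages, which were 3108 cells at baseline and 106 to 154 per infarct library, had 483 CPM of mitotic genes at baseline and 341, 212 and 694 CPM after infarction, so the infarct libraries overlapped baseline. Infarct library 3 was the high one, and without it the log2 ratio went from -0.22 to -0.80, while without infarct library 2 it was 0.10. MHC class II-high macrophages were near baseline in mitotic sum (486 against 431, 475 and 485 CPM).
Type 2 dendritic-like cells were lower after infarction in both sums (mitotic 1109 against 408, 501 and 452 CPM, replication 636 against 290, 243 and 522 CPM). Classical monocyte-like cells, which had 179 CPM of mitotic genes at baseline, spread from 62 CPM in infarct library 1 to 253 and 316 CPM in the others, and the log2 ratio of 0.23 became -0.19 without infarct library 3 and 0.67 without library 1. Saa3 Arg1 macrophages had only 12 baseline cells, and their mitotic sum was 98 CPM in infarct library 1, 573 CPM in library 2 and 1039 CPM in library 3. The gate on Xcr1, Clec9a and related genes of type 1 dendritic cells held the highest replication sums, at 973 CPM at baseline and 1617, 983 and 1174 CPM after infarction. Its mitotic sums were 2083 CPM at baseline, below other macrophages, and 3349, 1475 and 2576 CPM after infarction, above other macrophages in each library. It rests on 34 baseline and 44 infarct cells. The infarct cells were led by Siglech, a gene of plasmacytoid dendritic cells, with the gate genes Clec9a and Xcr1 at ranks 6 and 10. The name is therefore uncertain for the infarct cells, which may be of more than 1 kind.
The low levels of Kif23 and Hist1h1b after infarction were seen in several types. Kif23 was at 40.6 CPM in resident-like macrophages, 23 CPM in MHC class II-high macrophages and 27.8 CPM in classical monocyte-like cells at baseline, and at 17.2 ± 5.9, 10.5 ± 1.4 and 8.72 ± 4.1 CPM there after infarction. In reparative-like macrophages, with only 83 baseline cells, Kif23 was at 3.04 CPM at baseline and 5.99 ± 0.79 CPM after infarction. In non-classical monocyte-like cells Kif23 was at 36.6 CPM at baseline and at 37.8 ± 6.6 CPM after infarction. Hist1h1b was at 108 CPM and 66.5 ± 2.5 CPM in MHC class II-high macrophages and at 66.2 and 29.1 ± 12 CPM in classical monocyte-like cells. Replication-dependent histone mRNAs mostly lack a poly(A) tail, and histone genes have close copies, so the level of Hist1h1b in 3' counts is uncertain.

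**Figure D3:**
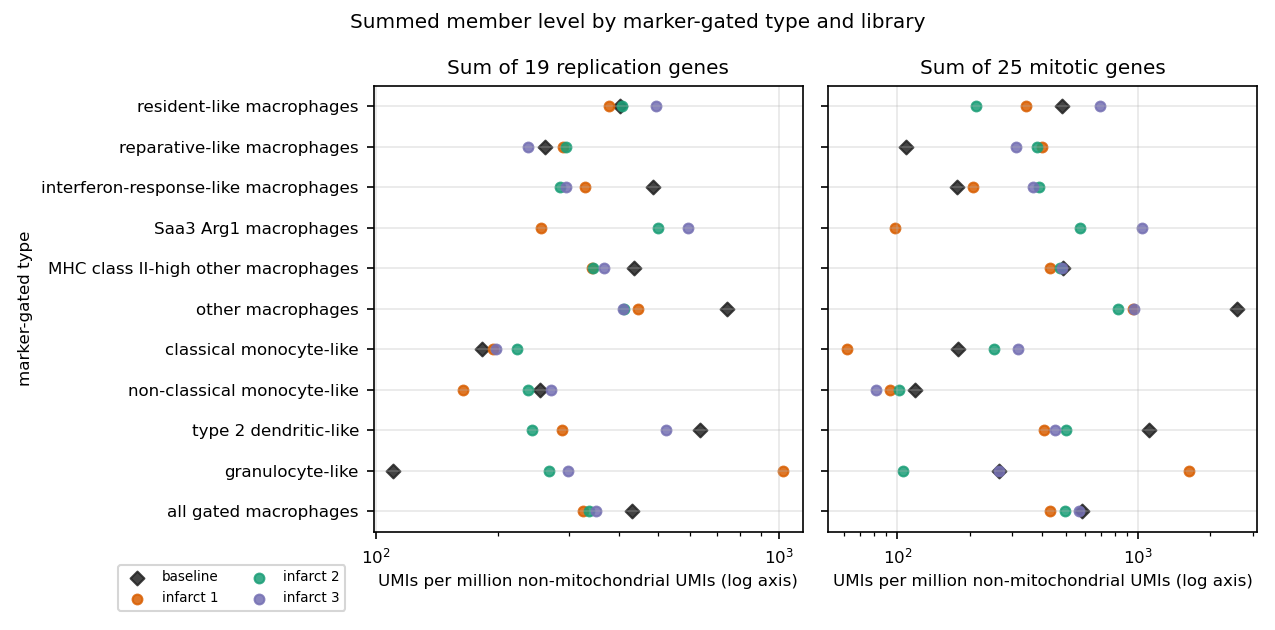
The summed level of 19 replication and 25 mitotic genes in CPM (log axis) is shown for the marker-gated types with enough cells for the comparison and for Saa3 Arg1 macrophages, with the baseline library as a diamond and each infarct library as a circle. Points from fewer than 20 cells are not drawn. In the mitotic panel other macrophages are at 2593 CPM at baseline, the highest point drawn, and at 829 to 961 CPM after infarction, where granulocyte-like cells of infarct library 1 (1634 CPM) and Saa3 Arg1 macrophages of infarct library 3 (1039 CPM) lie beyond them, and reparative-like macrophages move from 109 CPM at baseline to 311 to 398 CPM.

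The shares of cells followed the sums in part. In other macrophages 15.2% of 323 baseline cells (11.4% to 19.6%) and 7.59%, 6.3% and 9.02% of infarct cells had at least 2 mitotic UMIs, and 10.8% of baseline cells had UMIs of both lists against 3.8% ± 0.57. In reparative-like macrophages mitotic UMIs were in 2.41% of 83 baseline cells, an interval of 0.293% to 8.44% that holds the infarct values of 4.85%, 5.3% and 4.22%. In resident-like macrophages the share was 6.04% at baseline and 4.43%, 3.88% and 11.7% after infarction. Of the baseline macrophages with mitotic UMIs, 48% were resident-like, a type that was 49.2% of baseline macrophages. Of the infarct macrophages with mitotic UMIs, 29.3% ± 7.9 were reparative-like, 29.3% ± 2.2 were MHC class II-high and 26.4% ± 1.8 were other macrophages, types that made up 33.6% ± 4.2, 32.4% ± 1.2 and 19.8% ± 3.6 of infarct macrophages. Macrophages with mitotic UMIs thus came from every large macrophage type.

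Within the infarct libraries, each type was tested against all other gated cells by summing UMIs per library, so that every library gave a pair of sums and n = 3. The test was edgeR's quasi-likelihood test with the library as a block, and a gene was called at a Benjamini-Hochberg adjusted p under 0.01 over all genes tested. All 44 members passed the filter on low counts in each of 11 types tested, and calls were counted in all of them.
Other macrophages had 34 members called higher, all 25 mitotic genes and 9 of 19 replication genes, and none lower, where 5.4% of 13129 genes were called higher and 9.22% lower. The median log2 difference was 1.11 for the mitotic and 0.39 for the replication genes, beside 0.01 for all genes. Cenpf, which links kinetochores to microtubules, led with 36.5, 32.7 and 41.3 CPM in other macrophages of infarct libraries 1 to 3 against 11.6, 12.6 and 15.3 CPM in all other gated cells (log2 difference 1.40 ± 0.07 SE, adjusted p = 6.7e-06). Prc1, the bundler of the central spindle, was at 35.6 ± 1.5 CPM against 13 ± 1.6 CPM (mean ± SD, log2 difference 1.38, adjusted p = 2.4e-05), and Ube2c at 48.5 ± 3.0 against 19 ± 3.2 CPM (1.28, adjusted p = 3.1e-05). All 3 were higher in 3 of 3 libraries. Among the replication genes, those called were Mcm5, Mcm7, Gins2, Rrm1, Rrm2, Slbp, Clspn, Pclaf and Tyms, while Pcna was at 42 ± 3.2 against 40.5 ± 2.2 CPM (adjusted p = 0.81). The calls numbered 30 to 31 with each library left out and 26 without the block, 26 under the stricter gate and 23 in thinned cells, and every one of them was higher. These macrophages were defined by the lack of other markers, and several of those markers moved with mitotic UMIs, as given further on, and the part of that in this result was not tested.

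Monocytes stood at the other end. In classical monocyte-like cells 18 members were lower and none higher, where 14.6% of 13107 genes were called lower, and the median log2 difference was -1.12 for replication and -1.34 for mitotic genes beside -0.06 for all genes. Mcm6 was at 8.3 ± 0.50 against 28.8 ± 0.69 CPM (log2 difference -1.74 ± 0.12 SE, adjusted p = 3.2e-05), lower in 3 of 3 libraries. Mcm2 (3.42 ± 0.74 against 12.1 ± 0.93 CPM, adjusted p = 0.00024) and Gins2 (4.72 ± 0.31 against 12.7 ± 1.3 CPM, adjusted p = 0.00037) were lower as well. In non-classical monocyte-like cells, 49 to 63 per infarct library, 16 members were lower and 1 higher, where 9.56% of 12738 genes were called lower and 7.59% higher. Stmn1 was at 8.29 ± 2.6 against 96.7 ± 16 CPM (adjusted p = 5.7e-19), and Mki67 (adjusted p = 5.2e-10) and Top2a (adjusted p = 2.1e-08) rested on 2 and 3 UMIs in these cells. Members without any UMI there numbered 12, among them Pclaf, at least 5.66-fold lower, and Tpx2, at least 3.02-fold lower, against a floor of 3 counts over the 3 libraries. The median log2 difference of the mitotic genes was -3.70, or -2.30 with such genes at that floor. Kif23 was the member that was higher, at 37.8 ± 6.6 against 10.5 ± 1.8 CPM and in 3 of 3 libraries (log2 difference 1.68 ± 0.42, adjusted p = 0.00056), from 26 UMIs. The 17 calls became 14, 10 and 8 without infarct libraries 1, 2 and 3, and Kif23 was no longer called without library 1 or library 3.

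Other types had few calls, and several of those turned on 1 library. In reparative-like macrophages 4 members were lower (Cdc20, Slbp, Kif23 and Hist1h1b) and none higher, where 10.2% of 13178 genes were called lower. Cdc20, the activator of the anaphase-promoting complex, was at 3.9 ± 0.48 against 7.63 ± 1.5 CPM (adjusted p = 0.0022), Slbp at 46.1 ± 2.3 against 60.5 ± 2.0 CPM (adjusted p = 0.0029), and Kif23 at 5.99 ± 0.79 against 13 ± 3.2 CPM (adjusted p = 0.0063). Without infarct library 1, 35 members were lower, without library 2 none was called and without library 3 2 were.
In Saa3 Arg1 macrophages no member was called by edgeR or by DESeq2, with 2 members at an unadjusted p under 0.05, where 10.4% of 13101 genes were called higher and 8.69% lower. Without infarct library 1, 28 members were higher, and without library 3, 19 were lower. MHC class II-high macrophages had 7 replication genes higher and 1 mitotic gene lower, where 8.24% and 10.3% of 13090 genes were called. Slbp was at 60.5 ± 2.1 against 53.7 ± 0.68 CPM (adjusted p = 0.0012), Mcm3 at 38.4 ± 3.8 against 33.6 ± 1.5 CPM (adjusted p = 0.0037) and Mcm5 at 16.2 ± 1.4 against 13.2 ± 0.58 CPM (adjusted p = 0.0046), and Ccnb2 was lower (8.86 ± 0.69 against 12.3 ± 2.2 CPM, adjusted p = 0.0084). These differences were small, none was called without the block, 3 were higher and 5 lower without library 1, 3 were called without library 2 and 1 without library 3, and under the stricter gate 3 members were higher and 12 lower.
Mcm6 was higher in interferon-response-like macrophages (39.9 ± 4.4 against 27.1 ± 1.2 CPM, log2 difference 0.69, adjusted p = 3.0e-05) and in resident-like macrophages (45.5 ± 6.6 against 27.3 ± 1.0 CPM, log2 difference 0.58, adjusted p = 0.0044), in 3 of 3 libraries each, although the call in resident-like macrophages was lost with any 1 library left out. Hist1h1b (28.9 ± 8.8 against 60.2 ± 4.3 CPM, adjusted p = 1.4e-06), Mki67 (25.3 ± 6.0 against 44.1 ± 9.5 CPM, adjusted p = 0.00028) and Stmn1 (66.3 ± 18 against 97.6 ± 16 CPM, adjusted p = 0.00087) were lower in interferon-response-like macrophages. There 6 members were lower in all and 1 higher, where 4.33% and 8.42% of 13087 genes were called, and 12 members were called without library 2. In resident-like macrophages Ube2c (9.9 ± 8.8 against 23.8 ± 4.0 CPM, adjusted p = 0.00031) and Hist1h1b (36.1 ± 35 against 59.3 ± 4.4 CPM, lower in 2 of 3 libraries, adjusted p = 0.0024) were lower, where 6.42% of 12968 genes were called lower and 5.04% higher. The Hist1h1b call was lost without library 1, and 1, 2 and 4 members were called without libraries 1, 2 and 3.
Type 2 dendritic-like cells had 4 members higher and 3 lower, where 12.4% and 16.4% of 12936 genes were called. Mcm4 was at 33.6 ± 17 against 18.5 ± 1.6 CPM (adjusted p = 9.0e-05) and Kif23 at 20 ± 5.6 against 10.4 ± 1.9 CPM (adjusted p = 0.0014), higher in 3 of 3 libraries, and Cenpf was higher in 2 of 3 (adjusted p = 0.0012). Each of the 3 calls was lost with a library left out, Mcm4 without library 3 and Kif23 and Cenpf without library 2, and under the stricter gate 13 members were lower and none higher. Hist1h1b (22.5 ± 15 against 59.6 ± 4.7 CPM, adjusted p = 3.1e-10) was lower in 3 of 3 libraries and under each library left out. Stmn1 (65.5 ± 36 against 96.9 ± 16 CPM, adjusted p = 3.0e-05) and Rrm1 (14.5 ± 6.9 against 24 ± 1.1 CPM, adjusted p = 0.0040) were lower, the first not without library 1 and the second not without library 1 or 2.
Mature dendritic-like cells had 2 members higher, Ube2c (70.4 ± 77 against 23.5 ± 3.9 CPM, adjusted p = 8.0e-07) and Nusap1 (adjusted p = 0.0052), each in 2 of 3 libraries, where 9.9% of 12839 genes were called higher. No member was called there without library 3, 6 were without library 2, and without library 1 1 was higher and 2 were lower. Granulocyte-like cells had 4 members higher, where 4.64% of 12789 genes were higher and 8.89% lower, among them Pclaf (201, 0 and 20.6 CPM in libraries 1 to 3, adjusted p = 0.00022) and Ccnb2 (adjusted p = 0.0026). Without library 1, 9 members were lower and none higher, and without library 2 none was called. Kif23 was higher in granulocyte-like cells in 3 of 3 libraries (40.8 ± 15 against 10.5 ± 1.8 CPM, adjusted p = 0.0023), and that call was lost with any 1 library left out.

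**Figure D4:**
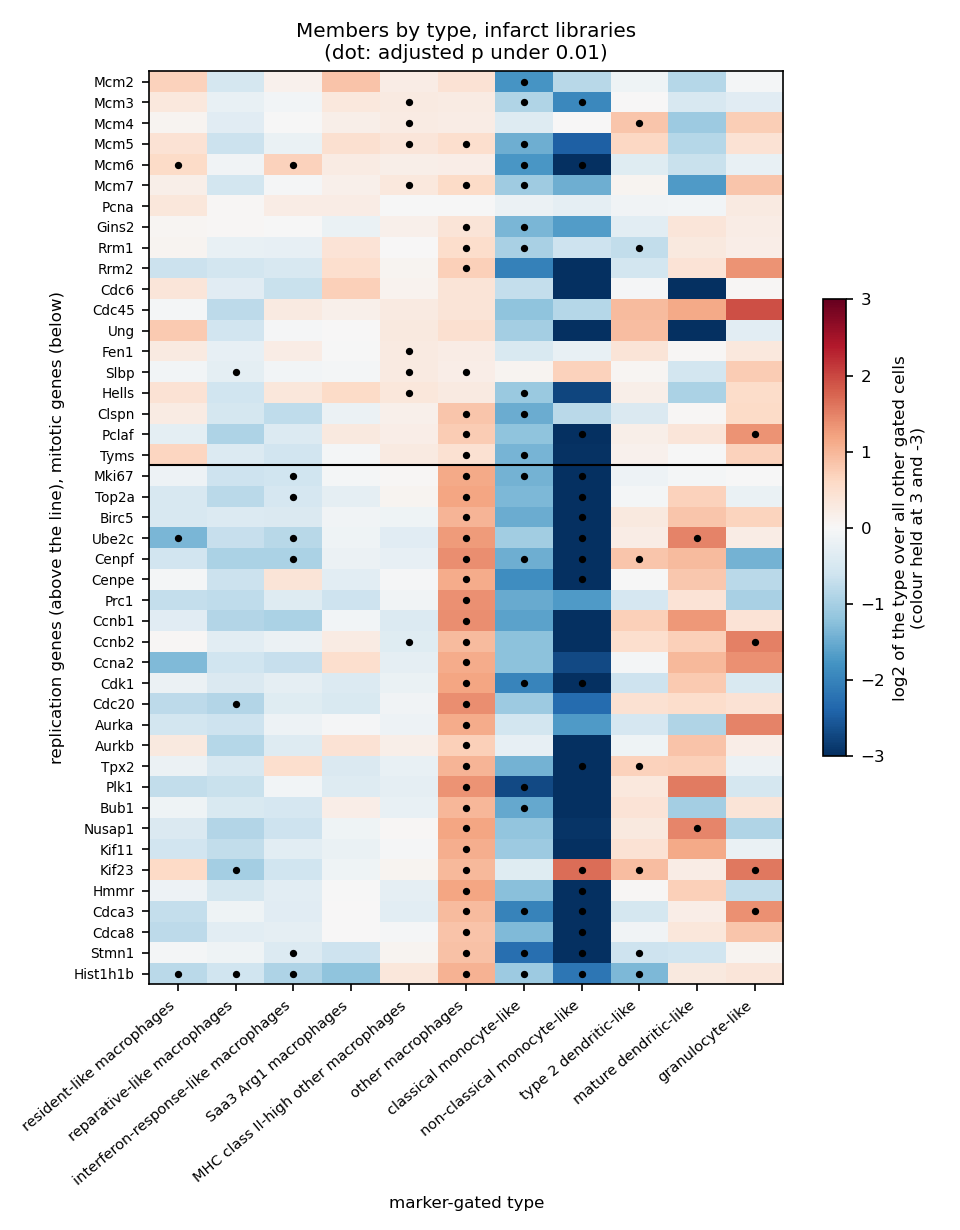
Colour gives the fitted log2 difference of each member (rows) between a marker-gated type (columns) and all other gated cells over 3 infarct libraries, held at 3 and -3, and a dot marks an adjusted p under 0.01 by edgeR. The mitotic genes are red with a dot throughout the column of other macrophages, and mostly blue in both monocyte columns, where Kif23 alone is red with a dot in non-classical monocyte-like cells. Members without UMIs in a column, 12 in non-classical monocyte-like cells, have a colour that depends on the fit.

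To see what else such cells carried, macrophages of the infarct libraries with at least 2 mitotic UMIs at 2000 UMIs (339, 478 and 512 cells) were compared with those that had fewer than 2 of either list (6421, 7406 and 6523 cells). Macrophages with at least 2 replication UMIs but fewer than 2 mitotic UMIs (565, 627 and 558 cells) were compared with the same cells. The members chose the cells and were left out of the test. Since cycle transcripts chose all of these cells, higher levels of other cycle genes follow largely from that choice and are a description. The median depth before thinning was 12059, 12219 and 11465.5 UMIs in cells with mitotic UMIs and 8831, 8651 and 8944 UMIs in cells with neither, and a doublet score marked 15.3%, 10.5% and 9.77% of the former and 9.44%, 10.6% and 9.92% of the latter.
In cells with mitotic UMIs, 14.2% of 12716 other genes were higher and 9.53% lower, and nearly all other cycle genes listed were among those higher. Of the other replication genes, 44 of 44 were higher, with a median log2 difference of 2.43 beside -0.02 for all genes. They included Tk1, thymidine kinase, at 104 ± 11 against 1.73 ± 0.17 CPM (adjusted p = 1.3e-09), Asf1b, a histone chaperone, at 66.7 ± 5.9 against 2.25 ± 0.11 CPM (adjusted p = 1.8e-09), and Atad2 at 169.5 ± 11 against 25.7 ± 1.6 CPM (adjusted p = 1.9e-09). Of the other mitotic genes, 49 of 50 were higher with a median of 4.94, led by Kif15, a spindle kinesin (82.3 ± 4.6 against 1.26 ± 0.06 CPM, adjusted p = 3.3e-10), the condensin subunit Smc2 (239 ± 8.2 against 19.6 ± 0.27 CPM, adjusted p = 4.4e-10) and Racgap1 (104 ± 3.8 against 3.63 ± 0.34 CPM, adjusted p = 4.4e-10). The exception was Pttg1, the securin gene, at 41.3 ± 4.3 against 47.2 ± 6.1 CPM (adjusted p = 0.015). Histones were higher in 19 of 20 cases, among them H2afx (153 ± 11 against 13.9 ± 1.6 CPM), Hist1h1a and Hist1h3c. The mitotic list that chose these cells holds the S-phase histone Hist1h1b, so the choice itself favours cells with histone transcripts. Its part in this result was not tested.
Regulators divided. Of 16 cycle inhibitors, 5 were higher and 2 lower. Cdkn2d (88 ± 3.5 against 26.3 ± 4.3 CPM, adjusted p = 3.0e-07), Cdkn2c (66.2 ± 7.9 against 12.7 ± 2.5 CPM, adjusted p = 1.8e-06), both INK4 inhibitors of Cdk4 and Cdk6, and the pocket protein gene Rbl1 were higher. The antiproliferative genes Btg2 (630 ± 40 against 896 ± 36 CPM, adjusted p = 2.7e-05) and Btg1 (332 ± 26 against 466 ± 24 CPM, adjusted p = 3.7e-05) were lower. Of 17 cyclin D, Myc and macrophage growth regulators, Cdk4 (log2 difference 0.98), Cdk2 (1.17), Ccnd1 (0.54) and Myc were higher. Igf1, a growth factor of macrophages (180 ± 15 against 295 ± 32 CPM, log2 difference -0.77, adjusted p = 2.6e-06), Csf1r, the receptor of the macrophage growth factor and the gene behind the sort (659 ± 26 against 835 ± 14 CPM, -0.40, adjusted p = 0.00010), Maf, Klf4 and Il4ra were among those lower. These differences were in 3 of 3 libraries for the genes given with values. They are in CPM, a share of UMIs, and the cells with mitotic UMIs had a higher median depth, as given above. A lower share need not mean fewer UMIs per cell, which was not tested.
Markers that set the macrophage types moved too, again as shares of UMIs. All 4 MHC class II genes were lower in cells with mitotic UMIs, with a median log2 difference of -0.60, as were 6 of 7 macrophage markers (median -0.27), 2 of 6 reparative markers, 3 of 6 interferon-response markers and 4 of 6 classical monocyte markers (median -0.84). Of 6 resident markers 1, Lyve1, was higher, in 2 of 3 libraries (log2 difference 1.08, adjusted p = 0.0074). None of the 5 Saa3 Arg1 markers was called. Of all genes outside the members, 3023 were called, 1697 without infarct library 2, and of the genes in these 5 lists 129 and 124.

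In cells with replication UMIs only, 3.78% of 12648 other genes were higher and 2.13% lower. Of the other replication genes, 40 of 44 were higher (median log2 difference 1.29 beside -0.0045 for all genes), led by Lig1, DNA ligase 1 (45.9 ± 6.7 against 13 ± 0.73 CPM, adjusted p = 2.0e-10), Uhrf1 (14.7 ± 4.2 against 1.18 ± 0.25 CPM, adjusted p = 5.5e-10) and Dut (37.5 ± 5.5 against 12.3 ± 1.4 CPM, adjusted p = 7.7e-10). Of 46 other mitotic genes tested 20 were higher, among them Smc2 (log2 difference 1.08), Hmgb2 (0.44) and Tuba1b (0.56). No histone of 17 was higher and 2 were lower, Hist1h2bc (-0.48, adjusted p = 4.3e-07) and Hist1h1c (-0.41, adjusted p = 4.1e-05), genes whose transcripts are also made outside S phase. Cells rich in Hist1h1b were counted as mitotic and so left out here. The lack of higher histones may thus be set in part by the choice of cells, and says nothing on histones in S phase.
Ccnd1, cyclin D1, which opens the way through G1, was at 257 ± 18 against 117 ± 2.9 CPM (log2 difference 1.09 ± 0.04 SE, adjusted p = 2.8e-11) and was higher in 3 of 3 libraries, and its difference in cells with mitotic UMIs was 0.54. Ccnd2 (29.6 ± 11 against 17.9 ± 3.3 CPM, adjusted p = 0.00070) and Cdk4 (72.1 ± 5.2 against 51.8 ± 2.5 CPM, adjusted p = 1.4e-05) were higher, as were Cdk6 and Myc, and Igf1 (241 ± 31 against 295 ± 32 CPM, adjusted p = 2.5e-06) and Il4ra (adjusted p = 0.0015) were lower. Of 16 inhibitors, Rbl1 (log2 difference 1.11) and Trp53 (0.25) were higher and Ccng2 (-0.47) and Btg1 (-0.15) lower. Of the type markers, 5 of 6 reparative, 1 of 7 macrophage and 2 of 6 classical monocyte markers were lower and no MHC class II gene was called. Without infarct library 2, 218 genes were called in place of 748, and 44 of the list genes in place of 73, and the calls of Ccnd2, Il4ra, Trp53, Ccng2 and Btg1 were among those lost. Whether the difference in Ccnd1 between both kinds of cells exceeds their spread was not tested.

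**Figure D5:**
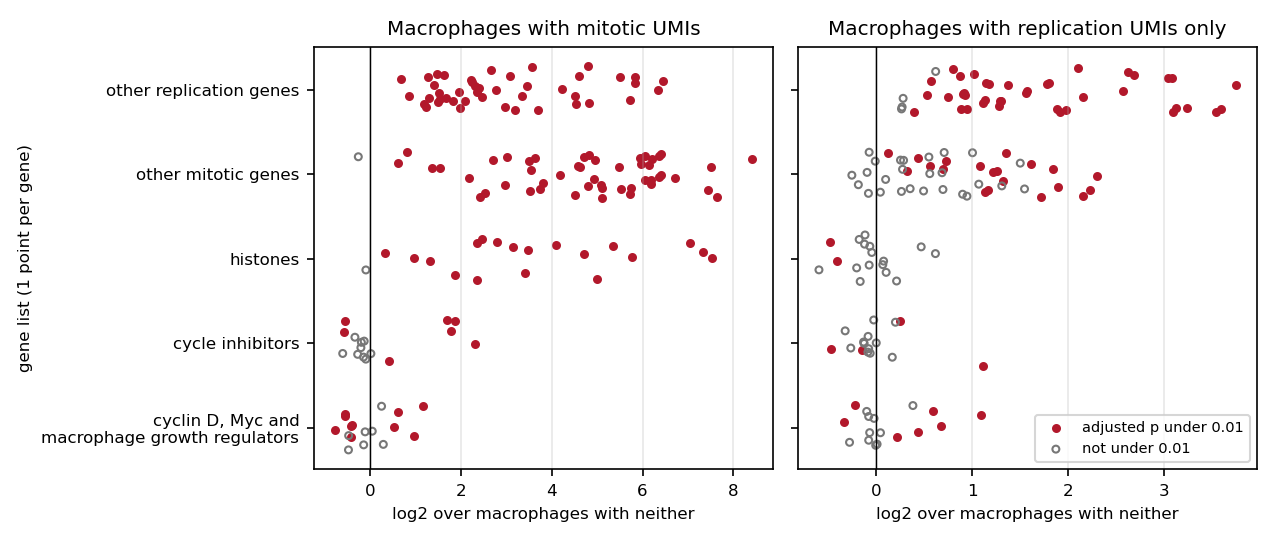
Each point is a gene of a list that holds no member, placed by its log2 difference over macrophages with neither kind of UMI, for macrophages with mitotic UMIs on the left and with replication UMIs only on the right (3 infarct libraries), and filled where the adjusted p by edgeR was under 0.01. Other mitotic genes have a median of 4.94 on the left and 0.70 on the right, and histones 3.27 on the left and -0.08 on the right. The histone Hist1h1b was among the mitotic genes that chose the cells.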

How the data were processed

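Single cells were profiled with 10x 3' chemistry in 1 baseline and 3 infarct libraries. The authors deposited filtered matrices of UMI counts per gene and cell, not normalized, aligned to mm10. The matrix headers name Cell Ranger 3.1.0 and the submitters' processing notes name 3.0.1. Deposited UMIs per library ranged from 71093963 to 97944428. The 44 members and all gene lists were chosen with earlier results of these data known.

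The filter on cells asked for 500 to 40000 UMIs and more than 200 genes, and doublets were removed only as an alternative. Gates used UMIs of marker lists per 10000: macrophages needed 40 and at least 3 markers of their list, resident-like macrophages 10 and 2 markers, the other macrophage states 20. Macrophages in no state were MHC class II-high from 100 upward. Shares were taken after thinning to 2000 UMIs, in 8991 baseline and 9549, 10110 and 9073 infarct cells. With 1 baseline library, infarct and baseline were not tested, and baseline intervals (95%, exact) cover counting error only. A call there needed a fold of 2, 5 CPM in a group and all infarct libraries on 1 side. Types with at least 20 cells in every infarct library were tested with edgeR 4.0.16 (R 4.3.3, TMM, filterByExpr, quasi-likelihood), with the library as a block, since a type and its comparator came from the same heart, and an adjusted p of 0.01 over all genes. Type 1 dendritic-like, fibroblast-like, endothelial-like and B-cell-like cells were too few.

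Named were, per list, the 5 members of highest level and the 3 highest and lowest ratios, and per type or gene list up to 3 genes per direction by lowest p. Pttg1, Myc, Maf, Klf4, Cdk6 and Lyve1 were named outside this rule after their values were seen, and 1 growth regulator that the rule names is not reported here. Alternatives were TMM scaling of levels, size factors or the Wald test of DESeq2 1.42.0, other filters, gates, thinning depths and UMI minimums, doublet removal, no block, and each infarct library left out. The tests were checked on simulated counts.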

Additional observations from a re-analysis of the deposited data

How the results depend on the processing

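No paired analysis was possible between infarct and baseline because the baseline library pooled its hearts and stands alone. With 1 baseline library, shallow types and sparse transcripts, differences below counting error were not detectable. DESeq2 size factors moved no count of calls past 1.5 times, and no called gene lost its call under them. Where a value moved, the cause was not tested.

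Between infarct and baseline, TMM scaling took the log2 ratio of the summed replication genes to 0.066 and of the summed mitotic genes to 0.13, and called 4 members in place of 1. Removing doublets called 2, thinned cells 2 and the mean of each cell's CPM 3. The log2 ratios of sums moved with the stricter gate to -0.40 for replication in MHC class II-high, -0.89 in other and -0.41 in all gated macrophages, and to -1.76 for mitosis in other macrophages. With doublets removed the mitotic ratios were 0.11 in MHC class II-high macrophages, -1.63 in other macrophages and -1.01 in type 2 dendritic-like cells. The share of all cells with replication UMIs had a log2 ratio of -0.22 with 1 UMI asked, -0.24 with 3, -0.26 at 1000 UMIs, 0.067 without thinning and -0.28 in 1 of 9 further draws. Its mitotic counterpart was 0.26 with 3 UMIs asked and -0.42 at 4000 UMIs. In gated macrophages the replication share gave -0.29 with 1 UMI asked, -0.085 without thinning and -0.53 in 1 further draw, and the mitotic share -0.41 at 4000 UMIs.

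Without the replicate block, members called numbered 0 in resident-like, 2 in reparative-like, 2 in interferon-response-like and 0 in MHC class II-high macrophages, 1 in type 2 dendritic-like, 0 in mature dendritic-like and 0 in granulocyte-like cells. Genes outside the members called then numbered 1757 in cells with mitotic UMIs and 75 in cells with replication UMIs only, with 34 list genes in the latter. Among named genes 31 of 72 lost their call without the block. The DESeq2 Wald test called 0 members in resident-like, 8 in reparative-like and 3 in MHC class II-high macrophages, 7 in non-classical monocyte-like, 2 in type 2 dendritic-like, 0 in mature dendritic-like and 1 in granulocyte-like cells, and 430 genes in cells with replication UMIs only. Thinned cells gave 0, 8, 1, 1 and 2 members in resident-like, reparative-like, interferon-response-like, Saa3 Arg1 and MHC class II-high macrophages, 3 in non-classical monocyte-like, 1 in type 2 dendritic-like, 0 in mature dendritic-like and 0 in granulocyte-like cells. Without a filter on low counts there were 23 in reparative-like and 2 in Saa3 Arg1 macrophages, 1 in mature dendritic-like cells, and 1192 genes in cells with replication UMIs only. The stricter gate gave 11 in reparative-like and 15 in MHC class II-high macrophages, 13 in type 2 dendritic-like and 1 in mature dendritic-like cells, and left non-classical monocyte-like cells too few for a fit. Doublet removal gave 13 in resident-like and 13 in interferon-response-like macrophages and 1 in mature dendritic-like cells. Asking for 3 UMIs called 1688 genes in cells with replication UMIs only. Cenpf in type 2 dendritic-like cells turned to -4.21 under the stricter gate, and Pclaf in granulocyte-like cells turned to -0.41 with the Wald test, -0.67 in thinned cells and -1.32 without infarct library 1 (-1.32 to 2.05 with each library left out).

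With each infarct library left out in turn, members called ranged from 1 to 4 between infarct and baseline, 1 to 4 in resident-like, 0 to 35 in reparative-like, 7 to 12 in interferon-response-like, 0 to 28 in Saa3 Arg1 and 1 to 8 in MHC class II-high macrophages, 8 to 14 in non-classical monocyte-like, 0 to 6 in mature dendritic-like and 0 to 9 in granulocyte-like cells. Genes outside the members called ranged from 1697 to 3850 in cells with mitotic UMIs and from 218 to 909 in cells with replication UMIs only, with 44 to 79 list genes in the latter.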
